A study of Homo sapiens with 4 samples.

Results

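Translation initiation factors (eIFs, gene symbols EIF) bring the small ribosomal subunit and the initiator tRNA to an mRNA and place them at the start codon. The cap-binding complex eIF4F, made of the cap-binding protein eIF4E, the scaffold eIF4G and the RNA helicase eIF4A, recruits the mRNA. The multi-subunit factor eIF3 links it to the small subunit, eIF2 delivers the initiator tRNA, eIF2B recharges eIF2, and eIF1, eIF1A and eIF5 govern start codon choice. Several of these genes make splice forms, among them poison exons, which carry an early stop codon and mark the mRNA for nonsense-mediated decay.

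Skipped exons of these genes were compared in MDA-LM2 cells, a lung-metastatic derivative of the human breast cancer line MDA-MB-231, after lipofection with an RNA named the SSE mimetic or with a scrambled oligo. The study had 4 samples, 2 per group, and nothing in the labels tells whether replicates were separate cultures. The deposited tables hold 1 pooled value per group, so there is no spread between replicates and no test across samples. Intervals and p-values below compare the pools, not the conditions.

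The members are skipped-exon events whose skipped exon, or both flanking exons, match an exon of a protein-coding gene with a GENCODE release 29 symbol that starts with EIF1 to EIF6, without the EIF2AK kinases. The rule covers 52 genes, and 36 of them had an event in both tables. They gave 133 of 45977 events, 132 through the skipped exon and 1, in EIF6, through the flanking exons only. Events that share a skipped exon were reduced to the one with the most isoform-specific reads, which left 126 exons at 100 separate loci. The 80 exons, in 29 genes, that had 10 or more isoform-specific reads in the SSE mimetic pool and in the scrambled pool were tested, out of 8228 tested exons in all. The tested EIF exons lie at 61 loci and skip over 61 distinct junctions, so several are overlapping forms that share reads.

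Ψ (percent spliced in) is the authors' estimate of the fraction of transcripts that keep the exon, from 0 to 1, given with its 95% credible interval. An inclusion read fits only the isoform with the exon, a skipping read fits only the isoform without it, a shared read fits both, and a read of neither isoform fits none of these, as intron reads do. Inclusion and skipping reads together are the isoform-specific reads. An exon was called when the authors' Bayes factor, which weighs a difference against none, reached 10 and the Ψ values lay 0.1 or more apart. All differences are Ψ with the SSE mimetic minus Ψ with the scrambled oligo, as in the authors' deposited table.

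Most initiation factor exons were not called. Inclusion was called higher with the SSE mimetic for 2 exons, 1 in EIF4E and 1 in EIF3E, and lower for 0, while 78 tested exons were not called. The called share was 2.5% of the EIF exons, beside 3.99% of all tested exons. Among all tested exons, 3.1% were called higher and 0.887% lower. Fisher's exact test on inclusion and skipping reads, with Benjamini-Hochberg adjustment over all 8228 tested exons, passed the same 2 EIF exons, 2.5% beside 1.01% of all. At an unadjusted p under 0.05 it passed 4 of the 80, beside 5.51% of all tested exons, the others being a second EIF3E exon and an EIF4B poison exon. An exon without a skipping read in either pool could not pass Fisher's test, and 39 of the 80 EIF exons had none. The share of such exons among all tested exons was not computed, so the pass rates may not be alike in reach. Credible intervals lay apart for 3 EIF exons, the called ones and the second EIF3E exon, 3.75% beside 5.87% of all.

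The sequences below belong to a selection of tested exons. They are the called EIF4E exon with its junctions, and uncalled exons. The uncalled ones are poison exons of EIF4A2 and EIF4B, and coding cassettes of EIF4H, EIF4A3, EIF3J, EIF4G2 and EIF4G3. The called EIF3E exon is not among them. The sequences were read 5′ to 3′ from GENCODE release 29 transcripts on hg38. The coding end of the called EIF4E exon lies at chr4:98909678-98909779 (minus strand), and capitals mark the start codon of the EIF4E-204 transcript. In the EIF4E junctions, capitals mark the last 15 bases of the upstream exon, so the lower-case bases show where the isoforms part.
EIF4E alternative start: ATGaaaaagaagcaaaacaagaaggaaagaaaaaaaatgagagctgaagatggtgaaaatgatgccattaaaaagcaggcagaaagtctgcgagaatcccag
EIF4E inclusion junction: GCGACTGTCGAACCGggtgctgtgaggaaa
EIF4E skipping junction: GCGACTGTCGAACCGgaaaccacccctact

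The first 30 bases of each poison exon follow, from chr3:186788310-186788339 (plus strand) for EIF4A2 and chr12:53022254-53022283 (plus strand) for EIF4B, with the in-frame stop codon of the annotated decay transcript in capitals.
EIF4A2 poison exon: gagtcgaTAGcagcagttggtgacgagatg
EIF4B poison exon: ggactcctggcccatacagaattTGAgata

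The whole coding cassettes follow, with the first complete codon in capitals. They lie at chr7:74190247-74190306 (plus) in EIF4H, chr17:80141319-80141381 (minus) in EIF4A3, chr15:44557489-44557650 (plus) in EIF3J, chr11:10801661-10801774 (minus) in EIF4G2 and chr1:20892619-20892729 (minus) in EIF4G3. All have a length that is a multiple of 3, so skipping keeps the reading frame.
EIF4H exon: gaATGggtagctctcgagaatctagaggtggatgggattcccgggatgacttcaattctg
EIF4A3 exon: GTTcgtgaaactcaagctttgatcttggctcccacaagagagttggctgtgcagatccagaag
EIF3J exon: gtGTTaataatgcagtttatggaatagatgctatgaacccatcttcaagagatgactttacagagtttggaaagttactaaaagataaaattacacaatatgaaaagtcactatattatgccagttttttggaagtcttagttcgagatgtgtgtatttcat
EIF4G2 exon: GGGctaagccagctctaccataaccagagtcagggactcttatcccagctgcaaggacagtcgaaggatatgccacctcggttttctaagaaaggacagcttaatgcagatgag
EIF4G3 exon: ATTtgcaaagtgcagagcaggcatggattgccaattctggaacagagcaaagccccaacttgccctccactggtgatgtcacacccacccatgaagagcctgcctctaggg

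Read depth and the kinds of reads differed between the pools, and their part in the results below was not tested. Over the 126 EIF exons, the SSE mimetic pool held 15.3 inclusion reads per 100 in the scrambled pool, 11.6 skipping reads per 100, 17.8 shared reads per 100 and 36.9 reads of neither isoform per 100. Over all 39120 exons the same values were 22.3, 14.3, 27.2 and 65.2. Reads of neither isoform made up 82.2% of the reads at EIF exons in the SSE mimetic pool, against 67.1% in the scrambled pool. The median number of isoform-specific reads per tested EIF exon was 39.5 in the SSE mimetic pool and 240 in the scrambled pool. The median width of its credible interval was 0.205 in the SSE mimetic pool, against 0.05 in the scrambled pool. In the same data, 7 genes were listed as markers of a breast cancer line of mesenchymal type, not as markers of mesenchymal cells alone. They had 648 isoform-specific reads in the SSE mimetic pool, against 5343 in the scrambled pool. These reads fell only in CD44, EGFR, KRT8 and ANXA1, 4 of the 7 genes. The keratin gene KRT8 gave 138 of them in the SSE mimetic pool and 520 in the scrambled pool. Epithelial or luminal markers had 49 such reads in the SSE mimetic pool against 79 in the scrambled pool. VIM, KRT18, CAV1, EPCAM, PECAM1 and HBB had no event among those analysed, and ESR1 had 12 reads in the SSE mimetic pool against 5 in the scrambled pool. Blood and endothelial markers had 38 in the SSE mimetic pool against 58 in the scrambled pool.

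**Figure D1:**
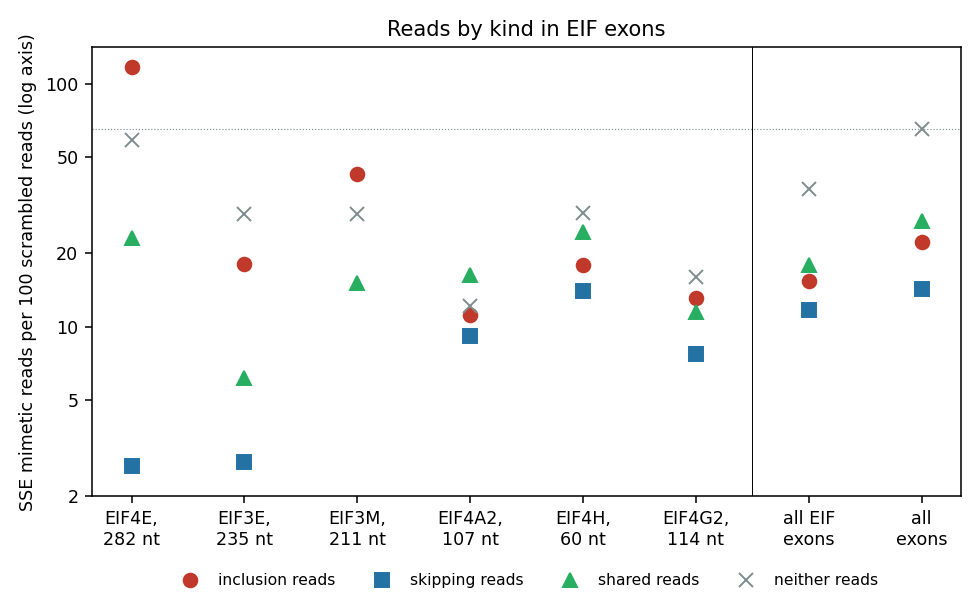
SSE mimetic reads per 100 scrambled reads (log axis) for 6 EIF exons, all 126 EIF exons and all exons, by kind of read. The dotted line is the level of neither reads over all exons (65.2); a kind with 0 SSE mimetic reads has no symbol, as for skipping reads of the EIF3M exon. In the called EIF4E and EIF3E exons skipping reads stand at 2.67 and 2.78 per 100, below every other kind.

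The cap-binding complex and its helpers held 37 tested exons in 10 genes. Of these 1 was called higher, 0 lower and 36 not, with a median difference of -0.01. EIF4E encodes the cap-binding protein itself. Its called exon, 282 nt at chr4:98909678-98909959, lies between the first exon and the exon that continues the usual reading frame, and in EIF4E-204 it holds 180 nt of untranslated region and the 102 nt alternative start shown above. Its Ψ was 0.29 (0.18 to 0.42) in the SSE mimetic pool and 0.01 (0.01 to 0.02) in the scrambled pool. The difference was 0.28, and the Bayes factor was 4.97e+09. The credible intervals did not overlap.

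The reads behind this EIF4E exon differed most in the skipping class. The SSE mimetic pool had 14 inclusion, 23 skipping and 78 shared reads, against 12 inclusion, 861 skipping and 336 shared reads in the scrambled pool. The inclusion share of isoform-specific reads was 37.8% (exact binomial interval 22.5% to 55.2%) in the SSE mimetic pool, against 1.375% (0.712% to 2.39%) in the scrambled pool. Fisher's exact test gave p = 1.59e-14 (two-sided) and an adjusted p of 6.54e-11. Inclusion reads were thus nearly equal in number while skipping reads were 2.67 per 100 scrambled reads. Reads of neither isoform numbered 1014 in the SSE mimetic pool and 1723 in the scrambled pool.

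Part of the EIF4E exon is also annotated as another gene. TBCAP3, a transcribed processed pseudogene of the tubulin cofactor gene TBCA on the same strand, spans chr4:98909537-98909848 and covers 171 nt of the exon, 60.6% of it. Of the 313 windows of 76 nt that touch the exon in EIF4E-204, 97 are also present in the TBCAP3 transcript, so reads there cannot be told apart by sequence. None of the 207 windows within the exon is identical to a TBCA transcript, and the longest alignment to one has 80.9% identity over 235 aligned positions. The part of pseudogene reads in the call was not tested. After the read density of the flanking introns was subtracted, the recomputed difference was 0.18 and still called. That call had 6 inclusion reads left in the SSE mimetic pool and 0 in the scrambled pool. With scrambled reads scaled down to 21.1 per 100, the ratio over all events, the difference was 0.27 and called. Depth stayed unequal there, since this exon had 4.24 SSE mimetic isoform-specific reads per 100 scrambled ones.

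The other EIF4E exons gave no call. The 140 nt coding exon, whose sequence is also wholly present in EIF4E pseudogenes, had a Ψ of 0.98 (0.92 to 1.00) in the SSE mimetic pool and 0.98 (0.97 to 0.99) in the scrambled pool. The 93 nt coding exon had a Ψ of 0.03 (0.00 to 0.11) in the SSE mimetic pool against 0.01 (0.00 to 0.02) in the scrambled pool. Of the 3 tested EIF4E exons, the 5′ one alone was called.

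**Figure D2:**
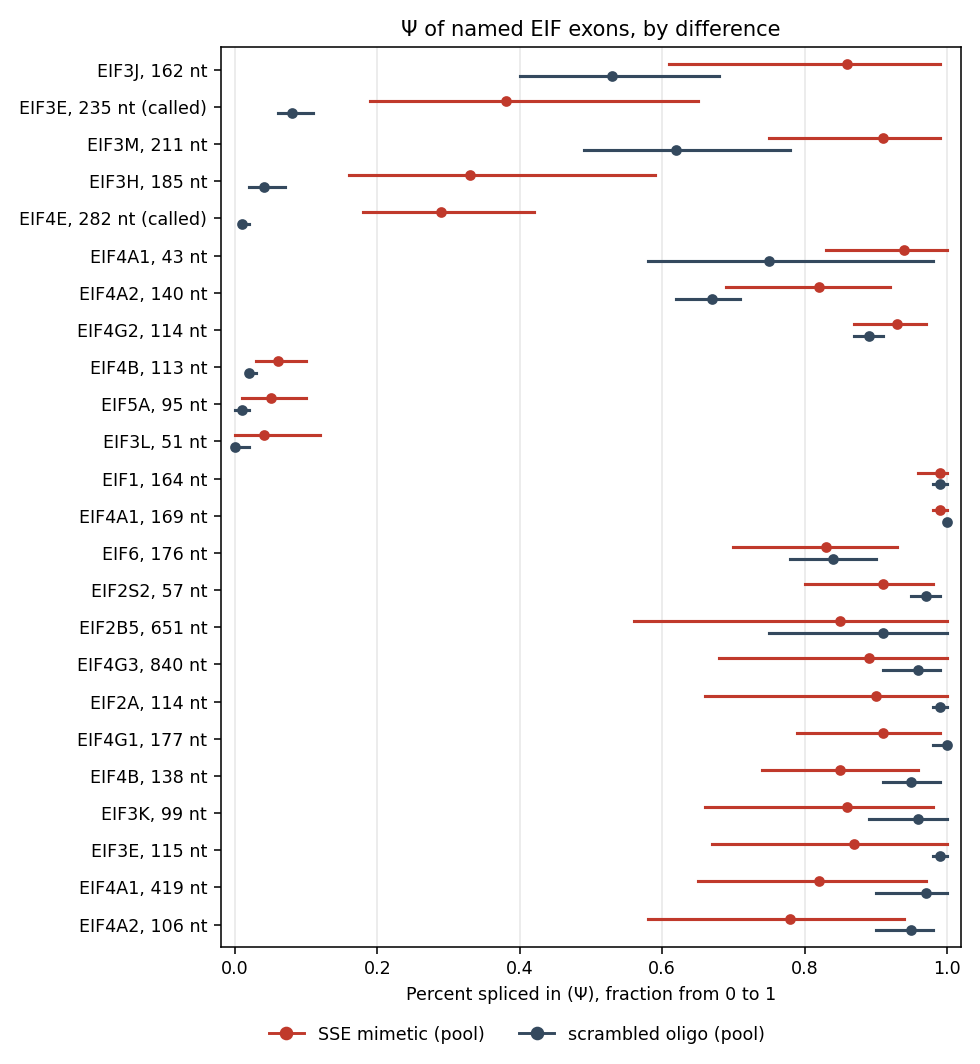
Ψ (fraction from 0 to 1) of 24 named EIF exons, ordered by difference; points are the authors' posterior means and lines their 95% credible intervals for the SSE mimetic pool (upper, red) and the scrambled pool (lower, dark). Intervals lie apart for the called EIF3E and EIF4E exons and for the EIF3H exon, which had too few reads to be tested.

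The eIF4A helicase genes gave no call. In EIF4A2, the 107 nt poison exon shown above had 80 inclusion reads and 13 skipping reads in the SSE mimetic pool, against 718 and 142 in the scrambled pool. Its Ψ was 0.74 (0.63 to 0.84) in the SSE mimetic pool and 0.75 (0.72 to 0.78) in the scrambled pool, and the recomputed 95% interval of the difference ran from -0.13 to 0.09. An EIF4A2 coding exon of 140 nt had a Ψ of 0.82 (0.69 to 0.92) in the SSE mimetic pool against 0.67 (0.62 to 0.71) in the scrambled pool, a difference of 0.15 with a Bayes factor of 1.8. A 106 nt EIF4A2 exon annotated in a decay transcript had a Ψ of 0.78 (0.58 to 0.94) in the SSE mimetic pool against 0.95 (0.90 to 0.98) in the scrambled pool, with a Bayes factor of 1.04. It contains a 90 nt coding exon with the same end and the same skipping junction, so the 2 forms share reads. That coding form had 39 inclusion reads in the SSE mimetic pool and 433 in the scrambled pool. Its Ψ was 0.86 (0.67 to 1.00) in the SSE mimetic pool against 0.97 (0.94 to 0.99) in the scrambled pool.

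EIF4A1, which holds the best-covered EIF exon, had 10 tested exons and 0 calls. Its best-covered exon, 169 nt, had 535 inclusion and 0 skipping reads in the SSE mimetic pool and 4116 inclusion and 0 skipping reads in the scrambled pool, at a Ψ of 0.99 in the SSE mimetic pool against 1.00 in the scrambled pool. A 43 nt coding exon had a Ψ of 0.94 (0.83 to 1.00) in the SSE mimetic pool against 0.75 (0.58 to 0.98) in the scrambled pool. After intron subtraction its recomputed difference was 0.041. A 49 nt coding form with the same end and skipping junction had 66 inclusion reads in the SSE mimetic pool and 432 in the scrambled pool. The difference of that longer form was -0.03, from a Ψ of 0.96 (0.89 to 0.99) in the SSE mimetic pool and 0.99 (0.98 to 1.00) in the scrambled pool. A 419 nt exon of a noncoding transcript had a Ψ of 0.82 (0.65 to 0.97) in the SSE mimetic pool against 0.97 (0.90 to 1.00) in the scrambled pool. All 10 exons share windows of 76 nt with other annotated genes, among them the readthrough gene SENP3-EIF4A1, so their reads are uncertain in origin. EIF4A3, a core part of the exon junction complex as well as an eIF4A relative, had the lowest difference of all tested EIF exons. Its 63 nt coding exon had a Ψ of 0.78 (0.56 to 0.94) in the SSE mimetic pool, from 12 inclusion reads and 1 skipping read. In the scrambled pool it was 0.98 (0.94 to 1.00), from 105 inclusion reads and 0 skipping reads. The difference was -0.20 with a Bayes factor of 4.32, short of a call, and this exon was chosen after its values were seen.

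The eIF4G scaffolds and the eIF4A cofactors eIF4B and eIF4H likewise had no called exon. In EIF4G2, whose product supports cap-independent initiation, the 114 nt coding cassette had 193 inclusion and 7 skipping reads in the SSE mimetic pool, against 1475 and 91 in the scrambled pool. Its Ψ was 0.93 (0.87 to 0.97) in the SSE mimetic pool and 0.89 (0.87 to 0.91) in the scrambled pool. In EIF4G3 the 111 nt cassette had a Ψ of 0.12 (0.04 to 0.24) in the SSE mimetic pool against 0.13 (0.07 to 0.20) in the scrambled pool, and in EIF4G1 a 100 nt exon had a Ψ of 0.16 (0.09 to 0.23) in the SSE mimetic pool against 0.22 (0.18 to 0.27) in the scrambled pool. The 60 nt exon of EIF4H had a Ψ of 0.07 (0.02 to 0.14) in the SSE mimetic pool and 0.06 (0.04 to 0.09) in the scrambled pool, from 5 inclusion and 32 skipping reads in the SSE mimetic pool and 28 and 228 in the scrambled pool. In EIF4B, the 113 nt poison exon had 15 inclusion and 65 skipping reads in the SSE mimetic pool, against 33 and 417 in the scrambled pool. Its Ψ was 0.06 (0.03 to 0.10) in the SSE mimetic pool against 0.02 (0.02 to 0.03) in the scrambled pool, with a Fisher p of 0.00254 that adjusted to 0.130. After intron subtraction 0 inclusion reads were left in either pool, and the recomputed difference was 0.00312.

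**Figure D3:**
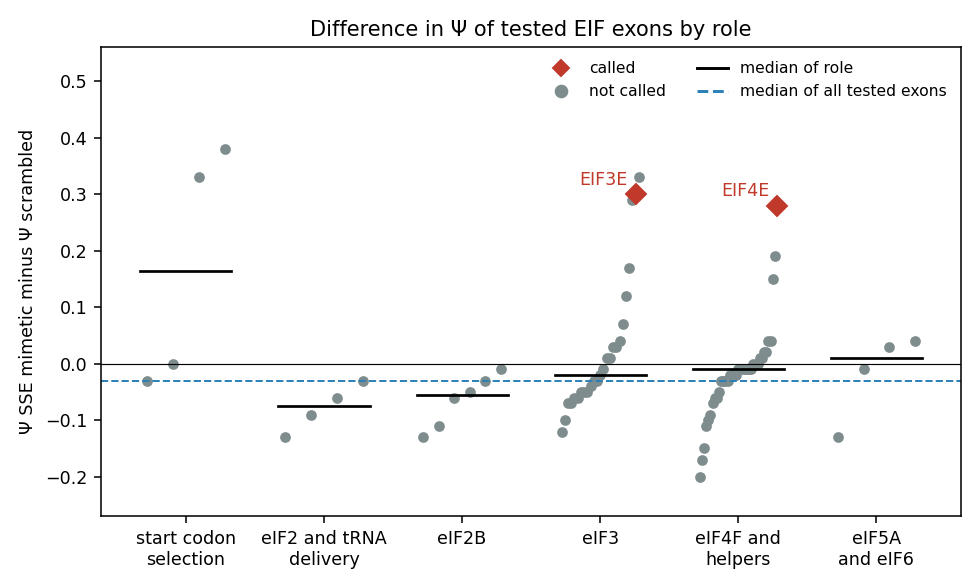
Difference in Ψ (SSE mimetic minus scrambled) of the 80 tested EIF exons by role of the gene. Each point is an exon, diamonds are called exons, black lines are the medians of a role and the dashed line is the median of all tested exons (-0.03); the called exons belong to eIF3 and to eIF4F with its helpers.

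The eIF3 complex held 25 tested exons in 9 genes, with 1 called higher, 0 lower, 24 not called and a median difference of -0.02. EIF3E, a subunit in contact with eIF4G, holds the called exon, 235 nt at chr8:108242112-108242346 and annotated in a decay transcript. It had 12 inclusion and 5 skipping reads in the SSE mimetic pool, against 66 and 180 in the scrambled pool. Its Ψ was 0.38 (0.19 to 0.65) in the SSE mimetic pool and 0.08 (0.06 to 0.11) in the scrambled pool, a difference of 0.30 with a Bayes factor of 54.45. Fisher's exact test gave an adjusted p of 0.0429. After subtraction of intron read density the recomputed difference was 0.12 with a Bayes factor of 0.454, which is no longer a call. With scrambled reads scaled to 21.1 per 100 the difference was 0.27 and called. Depth stayed unequal there too, at 6.91 SSE mimetic isoform-specific reads per 100 scrambled ones for this exon.

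A second EIF3E exon uses the same skipping junction and so the same skipping reads, 5 in the SSE mimetic pool and 180 in the scrambled pool. This 171 nt untranslated exon had a Ψ of 0.22 (0.08 to 0.43) in the SSE mimetic pool, against 0.05 (0.03 to 0.07) in the scrambled pool, with a Bayes factor of 1.58. A 145 nt form lies within the called exon and has the same skipping reads. It was not tested, since it had 6 isoform-specific reads in the SSE mimetic pool. Its Ψ was 0.11 (0.02 to 0.26) from 1 inclusion read in the SSE mimetic pool, against 0.04 (0.03 to 0.06) from 22 in the scrambled pool. The 115 nt coding exon of EIF3E had a Ψ of 0.87 (0.67 to 1.00) in the SSE mimetic pool against 0.99 (0.98 to 1.00) in the scrambled pool, with 0 skipping reads in either pool.

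Other eIF3 exons came close to a call. EIF3M, another eIF3 subunit, had a 211 nt untranslated exon at chr11:32586934-32587144 with 53 inclusion and 0 skipping reads in the SSE mimetic pool and 125 and 2 in the scrambled pool. Its Ψ was 0.91 (0.75 to 0.99) in the SSE mimetic pool against 0.62 (0.49 to 0.78) in the scrambled pool, and its Bayes factor of 9.47 put it just outside the criterion of 10, while the nearest called exon was that of EIF3E at 54.45. Recomputed on the same reads it was called, as it was after intron subtraction (difference 0.38), but not with scaled scrambled reads (Bayes factor 0.958). This exon contains a 133 nt coding form with the same end and the same skipping junction, so the 2 forms share reads. The coding form had 37 inclusion reads in the SSE mimetic pool and 115 in the scrambled pool. Its Ψ was 0.93 (0.78 to 0.99) in the SSE mimetic pool against 0.81 (0.67 to 0.93) in the scrambled pool, with a Bayes factor of 0.53. The 162 nt coding exon of EIF3J, a loosely bound subunit, had a Ψ of 0.86 (0.61 to 0.99) in the SSE mimetic pool and 0.53 (0.40 to 0.68) in the scrambled pool, with a Bayes factor of 5.12. In EIF3J and EIF3M nearly all isoform-specific reads were inclusion reads in either pool. Their inclusion share was 100% in the SSE mimetic pool, against 99.0% for EIF3J and 98.4% for the 211 nt EIF3M exon in the scrambled pool. In EIF3H a 185 nt exon at chr8:116697053-116697237 had a Ψ of 0.33 in the SSE mimetic pool against 0.04 in the scrambled pool. Its Bayes factor was 56.45, but it had 9 isoform-specific reads in the SSE mimetic pool, below the minimum, and 13 in the scrambled pool. All of these were inclusion reads, with 0 skipping reads in either pool. After intron subtraction 4 inclusion reads were left in each pool, and the recomputed difference was 0.19 with a Bayes factor of 23.7. The deposited shared reads numbered 43 in the SSE mimetic pool and 446 in the scrambled pool.

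**Figure D4:**
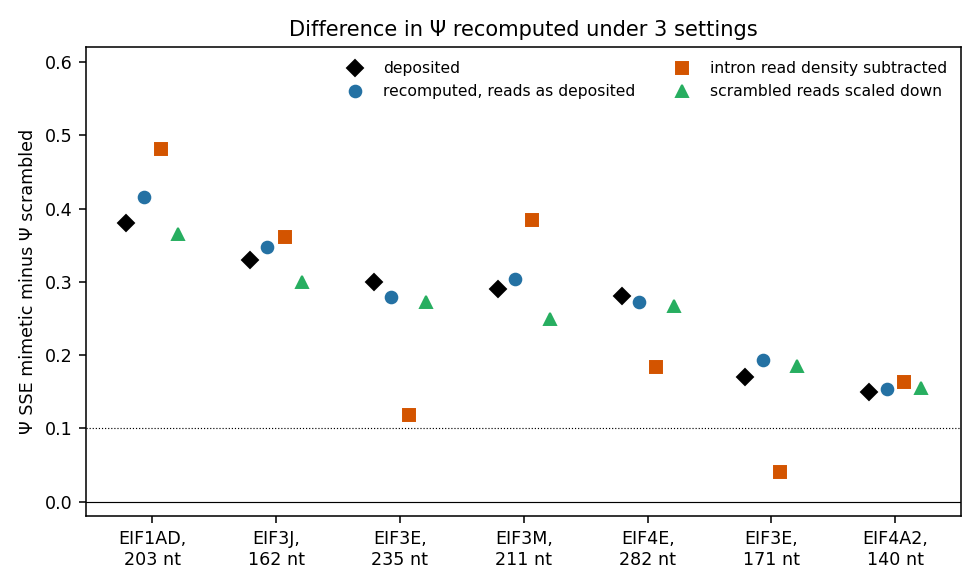
Difference in Ψ (SSE mimetic minus scrambled) of 7 EIF exons as deposited and recomputed with the reads as deposited, after subtraction of intron read density, and with scrambled reads scaled down. The dotted line is the minimum difference of 0.1; the EIF3E exon of 171 nt drops below it after subtraction, and the EIF4E exon stays above it in every setting shown.

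Factors of start codon selection, initiator tRNA delivery and the later steps had no called exon. EIF1AD, a nuclear eIF1A-domain protein, had the highest difference of the tested EIF exons and was named for that after its values were seen. Its 203 nt form had a Ψ of 0.79 (0.52 to 0.98) in the SSE mimetic pool, from 16 inclusion reads, and 0.41 (0.29 to 0.56) in the scrambled pool, from 53, with a Bayes factor of 8.1 and 0 skipping reads in either pool. EIF1, which works with eIF1A during scanning, had a Ψ of 0.99 in either pool for its 164 nt exon. The 4 tested exons of eIF2 and tRNA delivery genes had a median difference of -0.075, and the 57 nt exon of EIF2S2, the beta subunit of eIF2, had a Ψ of 0.91 (0.80 to 0.98) in the SSE mimetic pool against 0.97 (0.95 to 0.99) in the scrambled pool. The 6 tested eIF2B exons, 5 of them overlapping forms in EIF2B5, had a median difference of -0.055. In EIF6, which keeps the large ribosomal subunit from joining early, the 176 nt exon had a Ψ of 0.83 (0.70 to 0.93) in the SSE mimetic pool against 0.84 (0.78 to 0.90) in the scrambled pool. The untranslated 95 nt exon of EIF5A, a factor of elongation and termination, had a Ψ of 0.05 (0.01 to 0.10) in the SSE mimetic pool against 0.01 (0.00 to 0.02) in the scrambled pool.

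**Figure D5:**
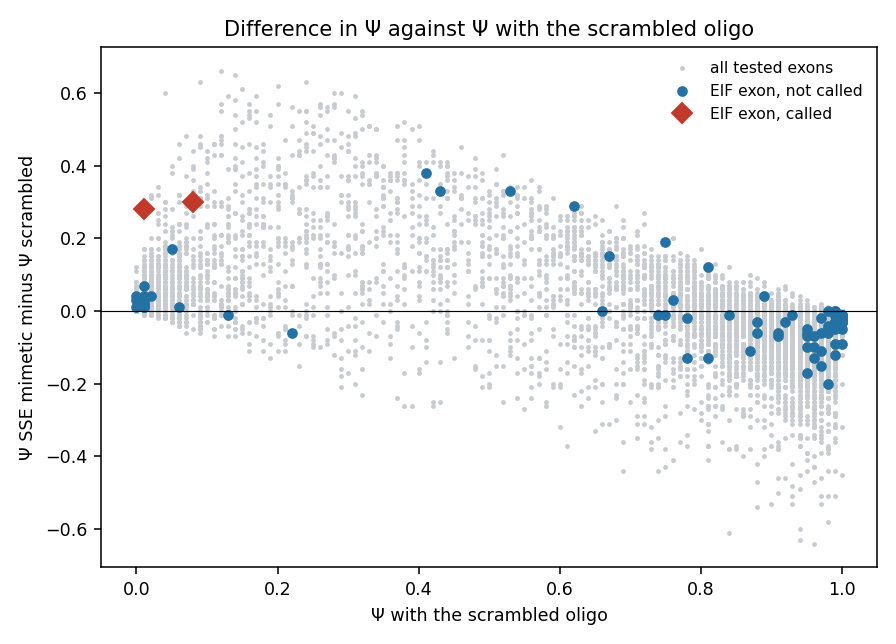
Difference in Ψ (SSE mimetic minus scrambled) against Ψ with the scrambled oligo for all 8228 tested exons (grey) and the EIF exons (blue, called ones as red diamonds). Both called exons have a Ψ of at most 0.1 in the scrambled pool, and no EIF exon at 0.9 or more has a difference above 0.

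Across the 80 tested EIF exons the direction of the difference followed the starting Ψ. Of the 44 exons with Ψ of at least 0.9 in the scrambled pool, 41 had a difference below 0 and 0 above, with a median of -0.045 beside -0.07 over all such exons. The 15 exons with Ψ of at most 0.1 were all above 0, with a median of 0.03 beside 0.04 over all such exons. Of all 3965 tested exons with Ψ of at least 0.9 in the scrambled pool, 3752 were below 0 and 93 above. Of all 1042 with Ψ of at most 0.1, 912 were above 0 and 61 below. These signs are thus no result about the initiation factors. Ψ cannot pass 0 or 1, and Ψ in the scrambled pool is itself part of the difference. The cause of the signs was not tested. Over all EIF exons the median difference was -0.02 (quartiles -0.06 and 0.0125), beside -0.03 (-0.09 and 0.03) over all tested exons. A difference of at least 0.1 in size was seen for 21 exons, 10 higher and 11 lower, while the share over all tested exons was 36.9%. By annotation, 54 coding exons had a median difference of -0.03 and 0 calls, and 11 exons of decay transcripts had a median of -0.01 and 1 call. The 5 exons, in 3 genes, that are part coding and part untranslated had a median of 0.28 and 1 call, that of EIF4E. The medians were 0.17 for 3 untranslated exons, -0.025 for 6 exons of noncoding transcripts and 0.03 for 1 unannotated exon, with 0 calls. Called shares by annotation over all tested exons were not computed.

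Among 48 other translation genes (eIF2 kinases, poly(A)-binding and mTOR pathway proteins, elongation and termination factors), 56 exons in 21 genes were tested. Of these 2 were called higher and 0 lower, 3.57% beside the 3.99% of all. CYFIP1, an eIF4E-binding partner of FMRP, had a 132 nt exon with a Ψ of 0.53 (0.28 to 0.79) in the SSE mimetic pool and 0.14 (0.05 to 0.27) in the scrambled pool. It had 10 inclusion and 4 skipping reads in the SSE mimetic pool, against 6 and 17 in the scrambled pool. Fisher's exact test gave it an adjusted p of 0.423. DDX3X, an RNA helicase that assists initiation, had a 1393 nt exon with a Ψ of 0.15 (0.10 to 0.23) in the SSE mimetic pool against 0.05 (0.04 to 0.06) in the scrambled pool, with 0 skipping reads in either pool. After intron subtraction CYFIP1 was still called, at a difference of 0.40, and DDX3X was not, at a difference of 0.00191. With scaled scrambled reads CYFIP1 was not called (Bayes factor 3.24), and DDX3X was, at a difference of 0.101 (Bayes factor 119). Fisher's exact test passed 3 exons, all in the elongation factor gene EEF1D, which have the same skipping reads and differed by under 0.1 in Ψ.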

How the data were processed

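Per the labels' protocols, ScriptSeq v2 libraries were sequenced from MDA-LM2 cells transfected with mimetic or scrambled RNA. STAR 2.7 and build hg38 are named in the submitters' processing notes. Per the file headers, the authors deposited MISO skipped-exon summaries, 1 per group and 1 comparison. How samples were combined, and MISO's version and event set, were not stated in the labels or headers. The deposited Ψ is a fraction, the deposited Bayes factor is a ratio capped at 1e+12, the deposited difference is a score of SSE mimetic minus scrambled, and the authors' read classes are text in other units.

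Events were matched to GENCODE 29. Over all events, 431105 isoform-specific reads fell in the SSE mimetic pool and 2039336 in the scrambled pool. Exons with 10 or more such reads in each pool were tested (Bayes factor of at least 10, difference of at least 0.1). Fisher's exact test was two-sided with Benjamini-Hochberg adjustment over all tested exons (SciPy 1.17.1, pandas 2.3.3). Exact binomial intervals are Clopper-Pearson at 95%. They cover counting error only, not the spread between replicates, since each group is 1 pooled value. They also take reads as independent, which could not be checked because the reads carry no molecular identifiers. Ψ was also recomputed with a 2-isoform likelihood on a grid of 400 values and a read length of 76 nt. That length was the one, among those tried, that brought recomputed Ψ closest to the deposited Ψ, so their closeness is partly built in. The likelihood was run on reads simulated from the same 2-isoform form without intron reads, which does not check the subtraction or the scaling. The input was the deposited reads, those reads less the density of neither reads per base of the flanking introns, or the deposited reads with the scrambled ones scaled to 21.1 per 100. This ratio is that over all events, so depth at single exons could stay unequal.

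Named exons were those called or passing Fisher's test, the 8 largest differences per direction (1 per gene) where each pool had 20 or more isoform-specific reads, the best covered of each role, those nearest the Bayes factor criterion on either side, and those passing but for reads. Other exons described were chosen after their values were seen. The members and lists were chosen with earlier results of these data known. Alternatives were other read minimums, Bayes factors, differences and criteria.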

Additional observations from a re-analysis of the deposited data

How the results depend on the processing

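The count of EIF exons called higher was 2, and became 3 with a minimum of 5 isoform-specific reads, 1 with a minimum of 20, 3 with none, 3 with the 2-isoform model on the deposited reads, 5 with a Bayes factor of at least 5 and 1 with a Bayes factor of at least 100. The count called lower was 0 and stayed 0 under each alternative run. Fisher's test passed 2 EIF exons, and 1 with a minimum of 5 reads, with a minimum of 20 and with none. For the other translation genes, 2 called higher became 4, 1 and 6 with read minimums of 5, 20 and none, 4 and 1 with Bayes factors of at least 5 and 100, 1 with a difference of at least 0.2, 0 with Fisher's test in place of the Bayes factor and 5 with the 2-isoform model on the deposited reads. Their count called lower was 0, and became 1 with a minimum of 5 reads, 2 with none, 1 with a Bayes factor of at least 5 and 1 with that model. The cause was not tested. Over 24 named exons and 11 alternatives, 255 of the values kept their side of the criteria, 3 (all for the EIF3E exon of 235 nt) lost the call, 6 gained one and no called value changed sign. Among values that were not called, 3 changed sign: EIF2B5 (651 nt) to 0.0564 and EIF3K (99 nt) to 0.0053 with scaled scrambled reads, and EIF4G3 (840 nt) to 0.00253 with the inclusion share. Depth in the SSE mimetic pool limits the EIF3E, EIF3H and EIF1AD values to between 9 and 17 isoform-specific reads. No paired analysis was possible because each group is 1 pooled summary, and for the same reason no replicate could be left out.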

Other observations

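The 46 EIF exons that were not tested had at most 9 isoform-specific reads with the SSE mimetic, and 7 genes with events had no tested exon: EIF2B1, EIF3D, EIF4E1B, EIF4E3, EIF4ENIF1, EIF5 and EIF5A2. Of the 79 tested EIF exons with a transcript sequence, 26 in 11 genes share at least 1 window of 76 nt with a transcript of another gene, and 7 share all of them. Among these, the 140 nt exon of EIF4E is wholly present in the pseudogenes EIF4EP2 and EIF4EP3, and the 71 nt exon of EIF3F in EIF3FP3. A skipping read was absent from either pool for 39 tested EIF exons.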
